A study of Mus musculus with 67 samples.

Results

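Microglia are the resident immune cells of the brain, and Orai1 forms the pore of a calcium channel in their outer membrane. The channel opens when the calcium stores of the endoplasmic reticulum are emptied: STIM proteins sense the loss, move to the junctions between the reticulum and the cell membrane, and gate the Orai1 pore. The calcium that enters acts on calcium-dependent enzymes and transcription factors, among them the NFAT factors, which regulate cytokine genes in many immune cells. The data described here show the RNA of cultured microglia from Orai1 knockout (KO) and control (WT) mice without any stimulus, in 12 of the 67 libraries of the series, chosen by their labels.

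KO cultures came from Orai1fl/fl Cx3CR1-cre/ERT2 mice, in which the Cx3cr1 locus drives a Cre that tamoxifen activates and the Orai1 alleles are floxed. WT cultures came from Orai1fl/fl mice, which have the same floxed alleles without that Cre. There were 6 KO cultures (3 female and 3 male) and 6 WT cultures (3 female and 3 male). Microglia were grown from the hippocampus of mice at postnatal days 2 to 5, shaken off the astrocyte layer after 12 to 14 days, and kept in serum-free medium before use. All of these cultures, WT included, received hydroxytamoxifen at 1 µM, which activates the Cre, and vehicle (DMSO) for 6 h. Because the Cre is present in KO cultures alone, loss of Orai1 and presence of the Cre cannot be told apart. Comparison was made with cultures of the same kind given thapsigargin (Tg, which empties the calcium stores) at 0.2 µM with PDBu (an activator of protein kinase C) at 50 nM, or LPS (a bacterial product) at 10 ng/ml. The series also holds vehicle libraries of microglia sorted from the whole brain of adult KO and WT mice (6 each), aged 10 to 12 weeks, 30 to 35 days after their last tamoxifen injection.

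The rows of the deposited tables are unnamed. Genes are therefore called rows, by their number from the top of the table, and no gene was inferred from its place. For the same reason Orai1 itself, markers of microglia and markers of other cell types such as astrocytes could not be looked up, so neither the labelled genotype nor the labelled cell type was checked against its defining genes. In bulk libraries, more RNA of a gene per cell and more cells of a type that expresses it cannot be told apart.

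Of 45707 rows in the culture table, 15979 had enough counts to be tested. The vehicle libraries held 8774657 to 16070721 counts in KO and 9116455 to 15253502 in WT cultures, and their mean depth did not differ detectably (exact permutation test, two-sided p = 0.504, n = 6 each). Levels are given as CPM, the count of a row relative to its library's TMM-scaled total, and they are not corrected for gene length. Row 1 had 75 to 197 counts in each of the 6 KO libraries and 0 counts in each of the 6 WT libraries. It was chosen because earlier results of these data had shown it in KO libraries only. It is therefore not a check of the genotype labels. One library went against its sex label. The 4 rows that were specific to males in sorted cells stood in WT female replicate 3 at 0.551 of their mean level in male vehicle cultures, against 0 to 0.0468 in the other female libraries. Results are given with and without this library where they rest on it.

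KO and WT cultures lay apart before any stimulus. On the first principal component, which held 66.7% of the variance of the 12 libraries over 14833 rows, all KO cultures had positive scores (38.4 to 83.3) and all WT cultures negative ones (-93.2 to -20). The 2 libraries nearest to the other genotype were KO female replicate 3 (culture 7) at 38.4 and WT female replicate 3 (culture 3) at -20. The second component held 5.75%. The cultures carry numbers in their labels, and these alternate in blocks: WT 3 and 4, KO 6 and 7, WT 9, 10, 12 and 14, then KO 15 to 18. Both KO blocks had positive and both WT blocks negative scores. Within WT the scores declined with the number, at -20 in culture 3, -51.6 in culture 4, -57.4 in culture 9, -91.7 in cultures 10 and 12, and -93.2 in culture 14. In KO they were 74.3 and 38.4 in cultures 6 and 7 and 51, 80.3, 78.1 and 83.3 in cultures 15 to 18.

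**Figure D1:**
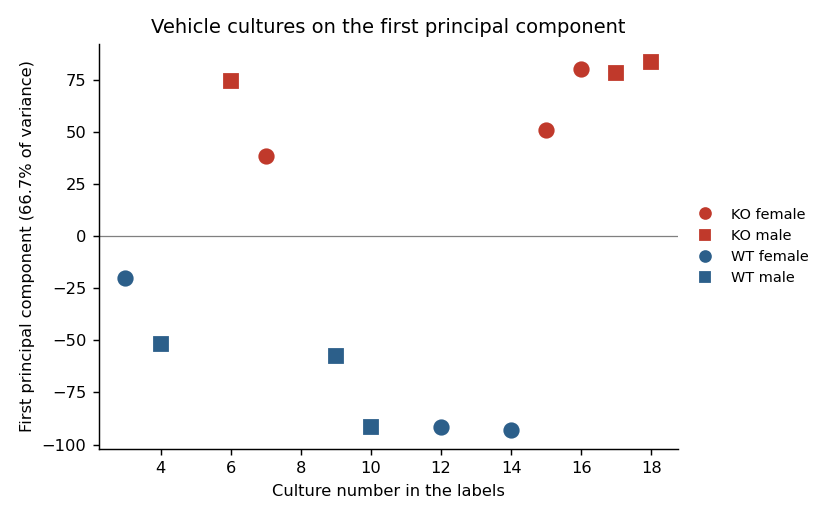
First principal component of the 12 vehicle libraries (vertical axis, arbitrary units) against the culture number in the labels (horizontal axis), with circles for females and squares for males. The 6 KO cultures sit between 38.4 and 83.3 and the 6 WT cultures between -93.2 and -20, in alternating blocks of numbers.

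A large share of the rows tested differed between the genotypes. With edgeR's quasi-likelihood test and a Benjamini-Hochberg adjusted p under 0.05, 8593 rows were called, or 53.8% of those tested: 4809 were higher in KO (30.1%) and 3784 lower (23.7%). The median log2 difference over all tested rows was 0.02. Scaling to library totals moved that median by 0.18 and the calls to 5777 higher and 2203 lower, 7980 in all, whereas RLE size factors gave 4550 and 4429, so the balance of directions depends on the scaling. Without WT female replicate 3 the calls were 4896 higher and 3854 lower. For 2971 rows (18.6%) all 6 KO values lay above all 6 WT values, and for 2201 rows (13.8%) all lay below, together 32.4% of the rows tested.

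Over all called rows, the median rise was larger than the median fall. Rows higher in KO had a median log2 difference of 1.88 (quartiles 0.95 and 2.46), a 3.68-fold difference, with a median standard error of 0.35. Rows lower in KO had a median of -0.56 (quartiles -0.84 and -0.38), a 1.47-fold difference, with a median standard error of 0.13. Of the rows that rose, 1389 were 2 to 4-fold, 1753 were 4 to 8-fold and 407 more than 8-fold higher. Of the rows that fell, 2030 differed by less than 1.5-fold, 560 by 2 to 4-fold, 63 by 4 to 8-fold and 23 by more. Of the 15979 rows tested, 3549 were called with a fitted difference of over 2-fold upward and 646 downward. The test itself was against no difference. This excess of rises was not found at every abundance. Of 2492 rows at a mean log2 CPM of 0 to 2, 1106 were over 2-fold higher and 92 lower. At 6 to 8 these numbers were 171 and 174 of 2931 rows, and at 8 to 10 they were 28 and 76 of 609. A larger standard error also lets only larger differences be called. For 81 of the called rises and 10 of the called falls, the lower genotype had 3 or fewer counts in total, so their fitted folds are not measured sizes. Rows that were present in one genotype and practically absent from the other were rare. In 3 rows, row 1 among them, every KO library had at least 5 counts and the WT libraries together 3 or fewer, and no row showed the opposite.

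The differences fell into a main peak and a second, smaller one. In steps of 0.5 on the log2 scale, 5027 rows lay between -0.5 and 0, and the number then declined to 806 between 1 and 1.5. It increased again to 931 between 1.5 and 2 and 1084 between 2 and 2.5, before it declined to 736 and 272 in the next 2 steps. The second peak was visible at some levels of abundance and not at others. Among the 2492 rows with a mean log2 CPM of 0 to 2 over all culture libraries, 230 lay between 1 and 1.5 and 348 between 2 and 2.5, against 343 in the step from -0.5 to 0. Among the 3319 rows with a mean of 2 to 4, 180 lay between 1 and 1.5 and 327 between 2 and 2.5, against 811 from -0.5 to 0. Among the 1718 rows with a mean under 0 there was little dip, with 183, 164 and 188 rows in the 3 steps from 1 to 2.5. Among the 609 rows with a mean of 8 to 10, 10 lay between 2 and 2.5, against 264 from -0.5 to 0.

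Direction changed with the abundance of the row. Of rows with a mean log2 CPM of 0 to 2, 47.4% were called higher in KO and 5.82% lower, and their median log2 difference was 0.97. At 4 to 6, where 4831 rows lay, 24.1% were higher and 29% lower, with a median of -0.08. At 8 to 10, 9.52% were higher and 63.2% lower, with a median of -0.38. Among the 79 rows above 10, 4 were higher and 51 lower, with a median of -0.57. The gap between the medians at 0 to 2 and at 8 to 10 was 1.35, and 1.34 to 1.53 under the other settings of the fit. It was 1.24 to 1.52 when each of the 12 libraries was left out. The same gap was 1.06 in females and 1.51 in males, and 1.37 in females without WT female replicate 3. Abundance here is counts and not counts per length, so a long gene at a low level and a short gene at a higher level can fall in the same class.

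**Figure D2:**
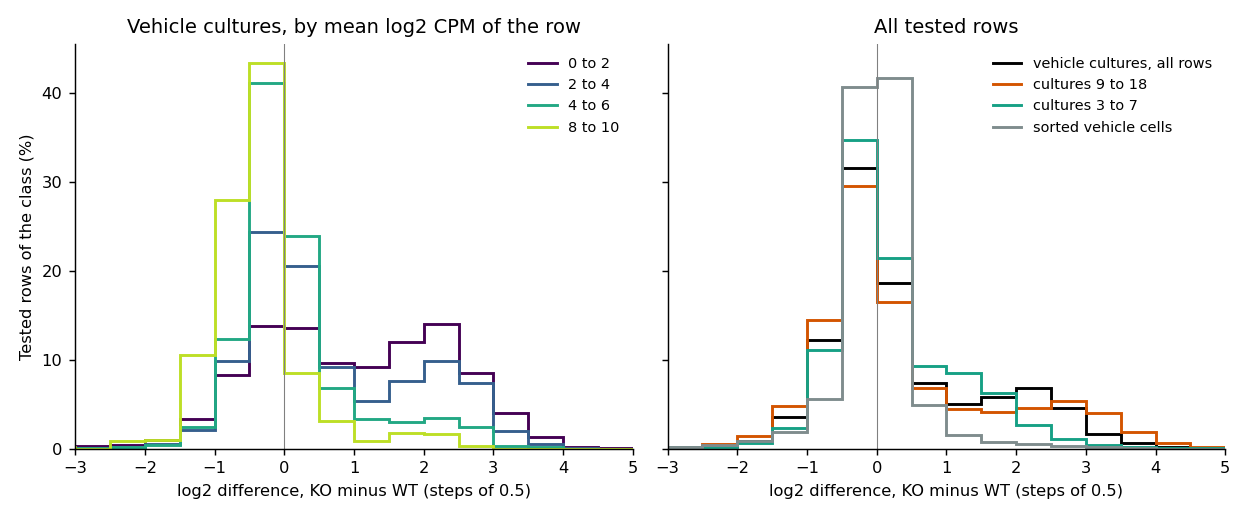
Share of tested rows (vertical axis, percent of the class) by log2 difference KO minus WT (horizontal axis, steps of 0.5). The left panel divides the rows of the vehicle cultures by their mean log2 CPM, where a second peak between 2 and 2.5 stands out at 0 to 2, and the right panel sets all culture rows beside cultures 9 to 18, cultures 3 to 7 and sorted vehicle cells.

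The same shift was visible in the make-up of each library. Thinned to 8774657 counts each, KO libraries contained 18596 to 19189 rows with at least 1 count, with a median of 18814, and WT libraries 17292 to 18148, with a median of 17673. The groups did not overlap. The mean was 18857 ± 205 rows in KO and 17647 ± 304 in WT (SD, n = 6 each), a difference of 1209 rows (exact permutation test, two-sided p = 0.00216, the smallest possible with 6 against 6). The highest WT value was that of WT female replicate 3, and without it the difference was 1309 rows (exact permutation p = 0.00433). The 100 rows with most counts took up 20.5 ± 1.29% of the counts in KO and 24 ± 1.18% in WT libraries, a difference of -3.51 percentage points (exact permutation test, two-sided p = 0.00216). KO libraries ranged from 19.1% to 22.4% and WT libraries from 22.6% to 25.6%. Counts were thus spread over more rows in KO cultures at equal depth.

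**Figure D3:**
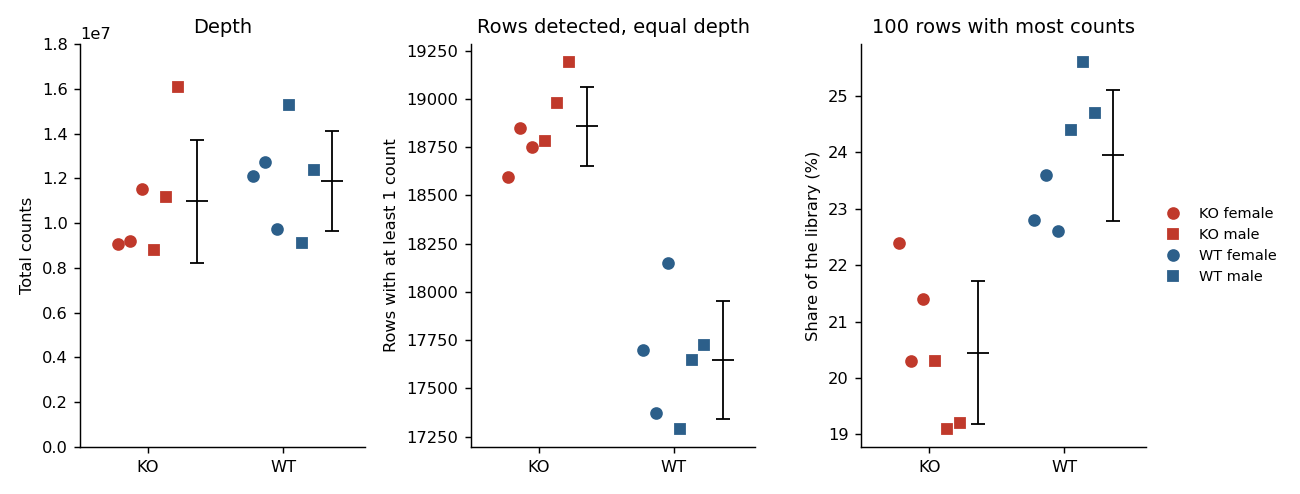
Total counts, rows with at least 1 count after thinning to equal depth, and share of counts in the 100 rows with most counts, for each vehicle library (points; circles female, squares male), with mean and SD (bars, n = 6). The 6 KO libraries lie above all WT libraries in rows detected (18596 to 19189 against 17292 to 18148) and below all of them in the share of the top rows, while the totals overlap.

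As a share of each library, the 4809 rows called higher held 17.2% to 25.1% of the counts in KO and 7.27% to 11.2% in WT. The 3784 rows called lower held 38% to 46.2% in KO and 54.2% to 59% in WT. These rows were chosen by that difference, so the shares only describe its extent. The 7386 rows not called held 36.7 ± 0.247% in KO and 33.7 ± 0.642% in WT libraries (SD, n = 6 each). Cultures of the same genotype and sex differed somewhat more in WT. The median SD of a row on the log2 scale was 0.23 in KO and 0.26 in WT, and 0.23 in WT without culture 3. The SD was larger in WT for 9447 rows and in KO for 6512, and larger in WT for 8123 without culture 3.

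Row 1 and 3 further rows are given library by library. Those 3 had the largest rise and the 2 largest falls in mean CPM among called rows whose groups do not overlap. Row 1 had 9.75, 7.06 and 13.7 CPM in KO females and 11.5, 9.64 and 10.6 CPM in KO males, against 0 in all WT libraries. Its levels overlapped between females and males of KO. Taken against the limit that 3 counts over the WT libraries would set, it was at least 250-fold higher in KO.

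Row 5415 had 1927, 2110 and 3291 CPM in KO females and 2470, 3646 and 3469 CPM in KO males, against 1120, 897 and 1858 CPM in WT females and 701, 825 and 973 CPM in WT males. The highest WT value was that of WT female replicate 3, just under the lowest KO value. The mean was 2819 ± 741 CPM in KO and 1062 ± 415 CPM in WT (SD, n = 6 each). The log2 difference was 1.43 ± 0.19 (SE, edgeR adjusted p = 1.36e-06), and 1.61 without WT female replicate 3. That p-value takes its spread from all culture libraries, stimulated ones included. With the 12 vehicle libraries fitted alone, the edgeR adjusted p was 0.000532.

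Row 3384 was the most abundant of the 4, at 11010, 7734 and 10146 CPM in KO females and 7993, 6459 and 7808 CPM in KO males. In WT it had 12534, 14757 and 12236 CPM in females and 15628, 15453 and 14667 CPM in males. The groups did not overlap, and KO and WT males lay further apart than KO and WT females. The mean was 8525 ± 1703 CPM in KO and 14212 ± 1468 CPM in WT (SD, n = 6 each), with a log2 difference of -0.75 ± 0.12 (SE, edgeR adjusted p = 9.27e-06). With the 12 vehicle libraries fitted alone, the edgeR adjusted p was 0.00061. Row 1622 had 2260, 1860 and 2714 CPM in KO females and 1459, 1203 and 1911 CPM in KO males. In WT it had 6163, 8145 and 7306 CPM in females and 6660, 8317 and 7944 CPM in males. The lowest WT value was above 2 times the highest KO value. The means were 1901 ± 543 CPM in KO and 7423 ± 869 CPM in WT (SD, n = 6 each), and the log2 difference was -1.99 ± 0.17 (SE, edgeR adjusted p = 3.68e-09). With the 12 vehicle libraries fitted alone, the edgeR adjusted p was 1.07e-05.

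**Figure D4:**
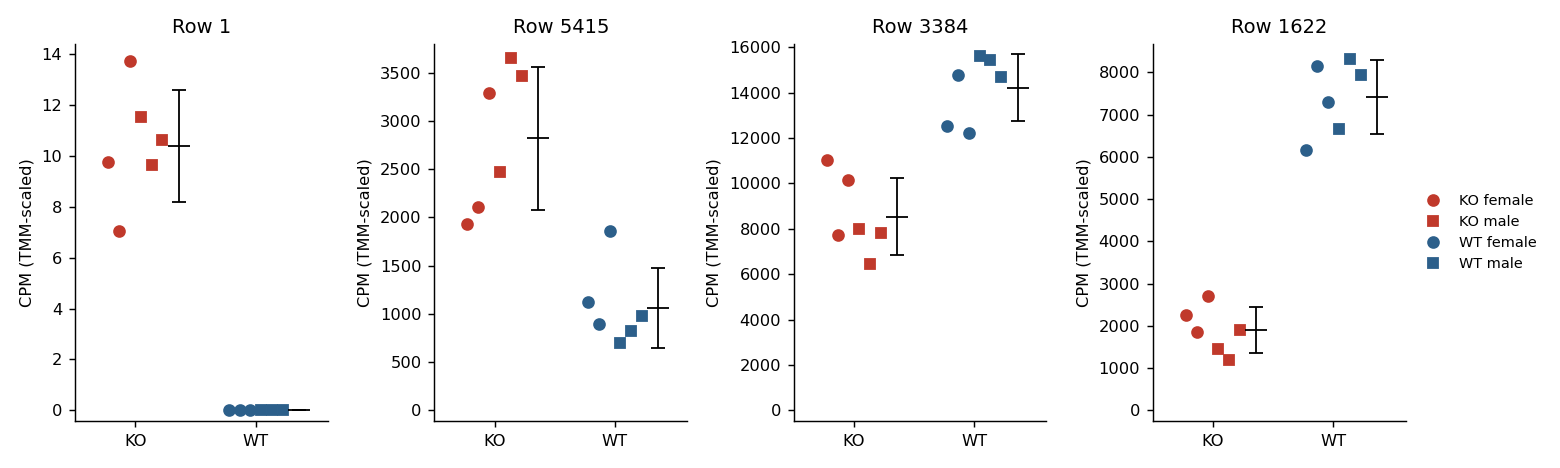
CPM after TMM scaling of rows 1, 5415, 3384 and 1622 in each vehicle library (points; circles female, squares male), with mean and SD (bars, n = 6), each panel on its own linear axis. KO values lie above WT values in rows 1 and 5415 and below them in rows 3384 and 1622, with no overlap in any of the 4 rows. Lack of overlap was part of the rule that chose rows 5415, 3384 and 1622. Row 1 was chosen as detected in KO libraries only.

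Both sexes showed the difference. In females 2911 rows (18.2%) were higher and 1863 (11.7%) lower in KO, 29.9% of rows in all. In males 4050 rows (25.3%) were higher and 2876 (18%) lower, 43.3% in all. Of the female calls, 4113 were called in the same direction in males, which is 86.2% of the female and 59.4% of the male list, and 4 were called in opposite directions. The difference between the sexes was tested directly. EdgeR called 0 rows (0%), with 825 rows at an unadjusted p under 0.05, and DESeq2 called 27. The larger count in males is therefore not shown to be a larger effect. The female count was the less stable: it was 2620 to 5453 when 1 female library was left out, and it fell to 2620 without KO female replicate 2, 2842 without WT female replicate 1 and 2706 without WT female replicate 2. Without WT female replicate 3, the library that went against its sex label, it rose to 5453, with 3333 rows higher and 2120 lower.

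Each of the low and high culture numbers holds both genotypes, so the comparison was repeated within them. Cultures 9 to 18 comprised 4 KO and 4 WT libraries, and 4592 rows (30.1%) were higher and 4224 (27.7%) lower in KO, 57.8% of 15249 rows tested. Cultures 3 to 7 comprised 2 KO and 2 WT libraries, and 1364 rows (8.94%) were higher and 935 (6.13%) lower, 15.1% in all. The smaller set rests on single libraries, with 0 rows called without WT male replicate 2, 105 without KO male replicate 3, 1227 without KO female replicate 3, and 3177 without WT female replicate 3. Calls within the 2 sets of cultures went the same way. Of the 2299 rows called in cultures 3 to 7, 2209 were called in the same direction in cultures 9 to 18, which is 96.1% of the first and 25.1% of the second list, and 5 in the opposite direction. Blocks of numbers still differ in genotype within each set, and the labels do not say what a number stands for beyond the culture.

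Rows chosen in one set of cultures can be read in the other. The 3537 rows that were more than 2-fold higher in KO in cultures 9 to 18 summed to 120344 and 89765 CPM in KO cultures 6 and 7, and to 51485 and 32435 CPM in WT cultures 3 and 4. Both KO cultures lay above both WT cultures. In cultures 3 to 7 the median log2 difference of these rows was 1.36, and 97.1% of them were above 0, beside a median of 0.01 over all rows. The 1142 rows more than 2-fold higher in cultures 3 to 7 summed to 41435 to 56900 CPM in KO cultures 15 to 18 and to 9269 to 12094 CPM in WT cultures 9 to 14. Their median log2 difference there was 2.66, with 99.6% above 0, beside a median of -0.03 over all rows. The falls showed the same: the 957 rows more than 2-fold lower in cultures 9 to 18 summed to 59710 and 77002 CPM in KO cultures 6 and 7, and to 126358 and 114176 CPM in WT cultures 4 and 3. The order was the same in each direction, with KO culture 7 and WT culture 3 the closest pair.

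A second peak of the differences was visible in one set and not in the other. In cultures 9 to 18, 676 rows lay between 1 and 1.5 on the log2 scale, 628 between 1.5 and 2 and 811 between 2.5 and 3. In cultures 3 to 7, 1294, 949 and 164 rows lay in these steps, without a separate peak. These steps were not counted without WT female replicate 3, a WT library of that set. The gap between the medians at 0 to 2 and at 8 to 10 mean log2 CPM was also read within each set. It was 1.59 in cultures 9 to 18 and 0.98 in cultures 3 to 7. With a library left out it was 1.49 to 1.68 in the first and 0.65 to 1.43 in the second. In the second it was 1.43 without WT female replicate 3 and 0.65 without KO male replicate 3. Whether this gap differs between the sets was not tested. The test of the difference between the sets called 5 rows (0.0328%). The KO minus WT difference was larger in cultures 9 to 18 for 4 rows (0.0262%) and smaller for 1 (0.00656%), and 2417 rows had an unadjusted p under 0.05. Row 1092 had 8.83 ± 0.574 CPM in KO and 0.751 ± 0.114 CPM in WT in cultures 9 to 18 (SD, n = 4 each), and 4.35 ± 2.5 CPM in KO and 5.31 ± 1.24 CPM in WT in cultures 3 to 7 (n = 2 each). Row 6829 had 42.6 ± 6.08 CPM in KO and 3.3 ± 1.29 CPM in WT in the first set, and 27.2 ± 12.8 CPM in KO and 14.9 ± 0.385 CPM in WT in the second. Row 1234 had 2.13 ± 0.666 CPM in KO and 7.47 ± 3.79 CPM in WT in the first set, and 7.69 ± 3.52 CPM in KO and 3.27 ± 2.47 CPM in WT in the second. The edgeR adjusted p was 0.0282 for each, and the rows were chosen after their values were seen. The count of 5 was 724 with DESeq2 and 0 without any one of 7 of the 12 libraries, as given in the closing part.

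Few rows were called between low and high numbers within a genotype, and the count rested on the tool and on single libraries. In WT, cultures 9 to 14 against 3 and 4 gave 1 row higher (0.00656%) and 14 lower (0.0918%), 0.0984% in all, with 2649 rows at an unadjusted p under 0.05. In KO, cultures 15 to 18 against 6 and 7 gave 0 calls with edgeR, with 998 rows at an unadjusted p under 0.05 and 60 called by DESeq2. DESeq2 called 932 rows in WT, and the edgeR count there was 316 without WT male replicate 2 and 575 without WT male replicate 3. With the culture number as a linear term in a fit of the vehicle libraries, 4313 rows were higher and 4137 lower in KO, against 4467 and 4354 in the same fit without it.

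Most of the rows called at rest were also called in stimulated cultures. Vehicle and stimulated libraries mostly carry the same culture numbers, so they are not independent. In all, 56.9% of rows were called between KO and WT with Tg+PDBu and 63.4% with LPS. Of the 4809 rows higher in KO with vehicle, 3422 (71.2%) were called higher with Tg+PDBu and 3814 (79.3%) with LPS, where 28.3% and 33.3% of all tested rows were called higher. Of the 3784 rows lower with vehicle, 2591 (68.5%) were called lower with Tg+PDBu and 2732 (72.2%) with LPS, where 28.6% and 30.1% of all rows were. The change of the genotype difference was tested row by row. The model had no term for the culture, so the test leaves out the pairing of libraries from the same culture. With Tg+PDBu it was called for 1999 of all rows (12.5%), 777 upward (4.86%) and 1222 downward (7.65%), and this balance turned to 1071 and 878 with RLE size factors and to 1369 and 1193 with DESeq2. With LPS it was called for 2539 rows (15.9%), 952 upward (5.96%) and 1587 downward (9.93%). That balance rested on single WT libraries given LPS: it was 1530 upward and 836 downward without WT female replicate 1, 1420 and 720 without WT female replicate 2, 1437 and 760 without WT male replicate 1, and 1451 and 747 without WT male replicate 3. Of the rows higher with vehicle, 400 had a lower KO minus WT difference with Tg+PDBu and 56 a higher one, and for LPS these numbers were 321 and 130. Of the rows lower with vehicle, the difference was smaller or reversed for 442 and larger for 259 with Tg+PDBu, and smaller or reversed for 375 and larger for 437 with LPS. The same vehicle libraries chose these rows and enter the test, so these counts are a description.

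Culture 8, a KO male culture, has no vehicle library, so its levels did not enter the vehicle means that chose the rows. Its stimulated libraries did enter the model behind the calls, through the count filter and the estimate of the spread. The 3549 rows more than 2-fold higher in KO with vehicle summed to 130828 CPM in its LPS library and 99911 CPM in its Tg+PDBu library. WT libraries reached 28377 to 47321 CPM with LPS and 20202 to 38233 CPM with Tg+PDBu. The highest WT value under each stimulus was that of culture 3. The 646 rows more than 2-fold lower summed to 56269 CPM with LPS and 30556 CPM with Tg+PDBu in culture 8, against 162816 to 300208 CPM and 85085 to 111401 CPM in WT. Culture 8 thus lay outside the WT range in both directions and under both stimuli. The WT cultures in this comparison did have vehicle libraries that chose the rows, so only the KO side is apart from that choice. It is also a single KO culture.

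**Figure D5:**
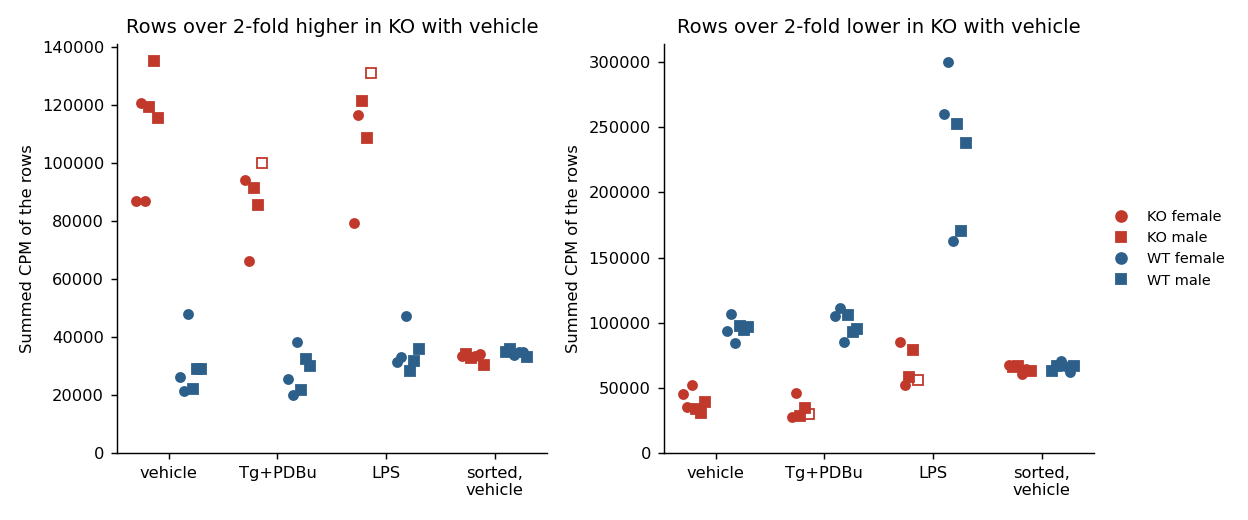
Summed CPM (vertical axis, linear) of the 3549 rows more than 2-fold higher and the 646 rows more than 2-fold lower in KO with vehicle, for each culture library and each sorted vehicle library (circles female, squares male; open squares, culture 8). KO and WT stand apart in all 3 culture treatments and overlap in sorted cells. Vehicle culture libraries chose the rows, so their separation only describes that choice. Stimulated libraries mostly carry the same culture numbers.

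Row 1 was at 0 to 0.269 CPM in KO with Tg+PDBu (0.132 ± 0.105, SD, n = 5) and at 2.51 to 4.6 CPM in KO with LPS (3.44 ± 0.818, n = 5), against 0 in all WT libraries (n = 6 each). Both ranges lay below the 7.06 to 13.7 CPM of KO vehicle cultures, and at least 1 KO library given Tg+PDBu had none of this row. The change of its genotype difference is not given, because every WT culture was at 0. Rows 5415, 3384 and 1622 kept their direction under both stimuli. Row 1622 was at 1055 ± 348 CPM in KO (n = 5) and 5451 ± 460 CPM in WT (n = 6) with Tg+PDBu, and at 1315 ± 325 CPM in KO and 7651 ± 754 CPM in WT with LPS (SD). Row 3384 was at 5194 ± 1149 CPM in KO and 9529 ± 549 CPM in WT with Tg+PDBu, and at 6580 ± 1434 CPM in KO and 12833 ± 1131 CPM in WT with LPS. Row 5415 was at 2994 ± 931 CPM in KO and 1188 ± 199 CPM in WT with Tg+PDBu, and at 3501 ± 1046 CPM in KO and 1600 ± 223 CPM in WT with LPS. The change of the genotype difference from vehicle was not called for these 3 rows (edgeR adjusted p from 0.135 to 0.787). These p-values do not show that the difference stayed the same.

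Few rows were called in resting sorted cells, where 4 of 15344 rows were called (0.0261%), 3 higher (0.0196%) and 1 lower (0.00652%) in KO, with 728 rows at an unadjusted p under 0.05. Both tables probably share 1 order of rows: the Spearman correlation of mean levels across rows was 0.848, against 0.347 when one table was moved by 1 row. Read by row number on that footing, 7147 of the rows called in culture were also tested in sorted cells, and 2 of these were called there in the same direction. Of the 7147 rows, 41.5% had the same sign, beside 44.1% of all rows tested in both. The 3549 rows more than 2-fold higher in KO cultures summed to 30376 to 34115 CPM in sorted KO cells and 33062 to 35806 CPM in sorted WT cells. The 646 rows more than 2-fold lower summed to 61202 to 67806 CPM in sorted KO cells and 62216 to 70859 CPM in sorted WT cells. In both sums the groups overlapped. The gap between the median log2 differences of rows at 0 to 2 and at 8 to 10 mean log2 CPM was -0.09 in sorted cells, where culture gave 1.35.

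Sorted cells were not at the level of the cultures in the rows named here. Row 1 was at 225 ± 20.2 CPM in sorted KO cells and 0.0216 ± 0.053 CPM in sorted WT cells (SD, n = 6 each). Row 5415 was at 11.1 ± 12 CPM in KO and 14.5 ± 8.6 CPM in WT, row 3384 at 923 ± 78.7 CPM in KO and 892 ± 131 CPM in WT, and row 1622 at 22.3 ± 8.8 CPM in KO and 15.8 ± 4.68 CPM in WT. The last 3 were not called in sorted cells (edgeR adjusted p = 1 each). Age, tissue, preparation and library kit differ between the tables, and no test of single rows was run across them.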

How the data were processed

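The deposited values are raw counts, whole numbers for each row in each library. The submitters' processing notes name STAR 2.7.10a, Trim Galore 0.6.7, Salmon 1.10.1 and GRCm38, and how the counts were made is not given in the sources used here. Per the labels' protocols, a NEBNext kit took 100 ng of culture RNA and a SMARTer total RNA kit 0.97 ng from sorted cells, and the tables were therefore fitted apart. Library names link each column to its labels, and the labels call the libraries separate samples.

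Rows were filtered with filterByExpr of edgeR 4.0.16 (minimum count 10, minimum total 15), which kept 99.93% of culture and 99.84% of sorted counts. TMM scaling and edgeR's quasi-likelihood test in R 4.3.3 followed, two-sided, with Benjamini-Hochberg adjustment over all rows. All 34 culture libraries entered 1 model with a mean per genotype, sex and treatment, with the sexes weighted equally. It had no term for the culture, so libraries of the same culture entered as separate samples. Comparisons by culture number used the 12 vehicle libraries, with sex as a term. A standard error is the log2 difference over the root of its F. Row sums and per-library values are counts divided by TMM-scaled library sizes. DESeq2 1.42.0 and voom of limma 3.58.1 were alternatives. The script was tested on simulated counts. Vehicle libraries of a group all differed beyond counting error (chi-square over its degrees of freedom at least 16.5). The labels do not tie cultures to animals, so p-values measure the spread between these libraries.

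Row 1 was named because it was already known to be detected in KO libraries only. The other named rows were the called row with the largest rise and the 2 with the largest fall in mean CPM. They were taken from rows without overlap of the groups and with 1 direction in both sexes. Members and rules were chosen with earlier results of these data known. The classes of abundance, the steps of the histogram and the summed rows were set after the data were seen.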

Additional observations from a re-analysis of the deposited data

Results flagged for a closer look

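Among 15 groups of 6 values tested for a sample far from the rest, 1 was singled out, where chance gives about 1 in 20. It was row 5415 in WT vehicle cultures, where WT female replicate 3 had 1858 CPM and the other 5 libraries 701 to 1120 CPM. The same library had male-specific rows at 0.551 of the level of male cultures, outside the measurements compared here, and its part in the results was not tested beyond leaving it out.

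Genotype differences that were not the same in separate sets of libraries, by a test of the difference, were called for 5 rows between cultures 9 to 18 and cultures 3 to 7, for 1999 rows between Tg+PDBu and vehicle, and for 2539 rows between LPS and vehicle.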

How the results depend on the processing

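The count of rows differing between KO and WT vehicle cultures was 7737 to 8750 when each library was left out (4321 to 4896 higher and 3345 to 3854 lower), and 3836 to 4448 for differences over 2-fold. In a fit of the 12 vehicle libraries it was 8821. With the replicate number of the labels as a replicate block it was 8852, and same-numbered libraries correlated at -0.257 to 0.0522, so the numbers were not taken as pairs. Library totals as scaling gave 2203 lower rows. The 4 named rows kept their direction and call under every alternative setting of the comparison of all vehicle cultures. These rows were chosen for a clear difference in the same libraries, so this follows in part from the choice. Within the low culture numbers alone, row 3384 kept its direction but was not called (log2 difference -0.69 ± 0.26, SE, edgeR adjusted p = 0.0918). The other named rows were called there in the same direction, row 5415 at an edgeR adjusted p of 0.047. Within the high culture numbers all 4 were called in the same direction. Rows detected per library differed by 1138 to 1309 and the share of the 100 top rows by -3.9 to -3.18 with a library left out. Left-out libraries gave 2620 to 5453 calls in females, 5565 to 6258 in males, 0 to 2 for males minus females, 1437 to 2179 for Tg+PDBu minus vehicle, 1755 to 3381 for LPS minus vehicle, and 3 to 4 in sorted vehicle cells.

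Counts by culture number moved most. Left-out libraries gave 0 to 3177 calls in cultures 3 to 7 and 7821 to 8663 in cultures 9 to 18. Their difference gave 0 to 352 calls. It was 0 without KO female replicate 1, 2 or 3, KO male replicate 1, WT female replicate 1 or 2, or WT male replicate 1. It was 2 without KO male replicate 2 or WT female replicate 3, 188 without WT male replicate 2 and 352 without WT male replicate 3. High against low numbers gave 0 to 575 in WT, with 0 without WT male replicate 1, and 0 to 5 in KO. Without a filter the difference gave 528, WT 757 and KO 29, and RLE size factors gave 7 in WT. DESeq2 called 3560 rows in cultures 3 to 7, 724 for their difference from the others, 932 in WT and 60 in KO, as well as 27 for males minus females and 21 in sorted vehicle cells. The cause was not tested. Rows under the count filter were not tested, which limits what depth could show.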
